A study of Mus musculus with 4 samples.

Results

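The class 3 semaphorins and their receptors were examined in alveolar type 2 (AT2) cells, which make surfactant and renew the alveolar epithelium, sorted on day 14 after bleomycin lung injury. The members are the 7 ligands Sema3a to Sema3g and the 3 receptors Plxnd1, Nrp1 and Nrp2, which are 10 of the 40092 genes in the count table, and all 10 had enough reads to be tested. They were taken by gene symbol as a family, and the family was chosen by the counts of Sema3e, whose difference between the genotypes prompted the choice, so that difference is described here without a test. The 2 control RNA-seq libraries (Ctrl) were from Alkbh5flox/+ mice and the 2 knockout libraries (A5-CKO) from Alkbh5flox/flox littermates, and whether a library pooled animals is not given in the sources used here. Mice of both genotypes carried Sftpc-CreERT2, a recombinase that tamoxifen switches on in cells using the surfactant promoter Sftpc, and the Rosa26-mTmG reporter, whose GFP marks recombined cells and served for the sort. All also received tamoxifen and bleomycin, so the Ctrl cells can lose 1 copy of Alkbh5, and injury itself is not compared here. Alkbh5 removes the methyl group of m6A, a modified base of messenger RNA. The labels give no age for the mice.

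Class 3 semaphorins are secreted proteins, first known for steering growing axons, that also act on blood vessels and on developing lung epithelium. A class 3 semaphorin usually binds a neuropilin (Nrp1 or Nrp2), which has no signalling domain of its own and hands the signal to a plexin in the same membrane. Sema3e is the exception, since it binds Plxnd1 directly and needs no neuropilin. The neuropilins also serve as co-receptors for vascular endothelial growth factor.

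Of the 10 members, 4 ligands lie within one stretch of chromosome 5, in the order Sema3d, Sema3a, Sema3e and Sema3c. The promoter windows of Sema3e, Sema3a and Sema3c are shown because each A5-CKO library held more of these 3 ligands than either Ctrl library. Each window runs from 250 bases before to 50 bases after a transcript start, from RefSeq on GRCm38.p6, all on the plus strand, at chr5:14025026-14025325 for Sema3e, chr5:13396534-13396833 for Sema3a and chr5:17574566-17574865 for Sema3c. Capitals mark matches on either strand to the GC box GGGCGG, which reads CCGCCC on the other strand, and to the E-box CACGTG.
Sema3e: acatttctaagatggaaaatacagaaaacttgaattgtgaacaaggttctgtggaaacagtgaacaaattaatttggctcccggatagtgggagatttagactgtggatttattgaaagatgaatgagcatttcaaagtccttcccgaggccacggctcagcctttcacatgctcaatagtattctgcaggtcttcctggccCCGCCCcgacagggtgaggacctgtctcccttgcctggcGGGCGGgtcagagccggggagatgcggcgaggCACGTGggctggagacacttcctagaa
Sema3a: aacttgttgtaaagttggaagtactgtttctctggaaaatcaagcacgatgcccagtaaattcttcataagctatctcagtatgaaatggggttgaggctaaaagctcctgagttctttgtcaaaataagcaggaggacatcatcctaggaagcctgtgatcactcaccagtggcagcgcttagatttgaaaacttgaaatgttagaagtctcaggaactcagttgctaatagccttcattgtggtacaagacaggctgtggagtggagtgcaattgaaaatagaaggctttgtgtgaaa
Sema3c: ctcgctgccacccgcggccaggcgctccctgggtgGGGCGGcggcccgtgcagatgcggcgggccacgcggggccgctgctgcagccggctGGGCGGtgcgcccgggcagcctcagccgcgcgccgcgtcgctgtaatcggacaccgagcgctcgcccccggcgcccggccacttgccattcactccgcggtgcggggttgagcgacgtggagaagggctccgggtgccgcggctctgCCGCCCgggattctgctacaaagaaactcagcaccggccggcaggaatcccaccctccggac
The Sema3e window held 2 GC boxes and 1 E-box, the Sema3c window 3 GC boxes, and the Sema3a window none of the letters searched. Of 32841 promoter windows of this length, 35.7% held a GC box and 7.15% an E-box. The AP-1 letters TGAGTCA or TGACTCA (5.2% of all windows), the TEAD letters GGAATG (14.7%) and the TATA letters TATAAA (13.6%) were in none of the 3 windows. No 2 matches overlap in these windows. Base composition set the windows apart, with 75.7% GC and 42 CpG in Sema3c, 50.7% and 11 in Sema3e, and 41.3% and 2 in Sema3a, against medians of 52.7% and 7 over all windows. The Sema3a window lies inside the gene, which spans 13124822 to 13603485, and those of Sema3e and Sema3c lie at the gene starts. Its letters and base composition therefore need not be those of a promoter at the start of Sema3a. A match describes the letters and is not a bound site. RefSeq windows were found for 8 of the 10 members.

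The libraries held from 18144865 to 20811757 counts. Values below are CPM, read counts divided by the TMM-scaled library size on the usual scale of edgeR, which compare one gene between libraries, and levels are compared between genes only as CPM per kb of the longest coding transcript in GENCODE M21. A count of 3, taken as the floor of detection, is 0.128 to 0.177 CPM and covers counting error only. Genotypes were compared by the quasi-likelihood test of edgeR, and p-values were adjusted by Benjamini-Hochberg over the 16661 genes that passed the filter on low counts. In this fit 0 genes (0% of those tested) passed 0.05 after adjustment, and 1530 (9.18%) had an unadjusted p under 0.05. DESeq2 called 64 of 14400 genes (0.444%) on the same genes and 59 of 15306 (0.385%) with its default filtering. Alkbh5, the targeted gene, had 81.7 and 152 CPM in Ctrl 1 and Ctrl 2, and 19.3 and 36.6 CPM in A5-CKO 1 and A5-CKO 2. The labels give these as separate samples of each genotype, and with 2 against 2 libraries the smallest two-sided p of an exact permutation test is 0.333.

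The AT2 markers, among them the surfactant genes Sftpc, Sftpa1 and Sftpd, were all detected in every library, with a summed level of 56842 and 82478 CPM in Ctrl and 42680 and 35068 CPM in A5-CKO. Of the 10 AT2 markers, 6 had lower values in each A5-CKO library than in either Ctrl library, as 23.5% of all tested genes did. Of the AT1 markers, 8 of 10 were tested and 4 were higher in both A5-CKO libraries (Hopx, Clic5, Akap5 and Cav1), against 20.3% of all tested genes. Aqp5 was lower in both, at 981 and 951 CPM in Ctrl and 479 and 636 CPM in A5-CKO. Ager and Pdpn were not tested, with no more than 0.349 CPM of Ager and 0.770 CPM of Pdpn in any library. The summed AT1 markers overlapped, at 2336 and 2215 CPM in Ctrl and 2154 and 2320 CPM in A5-CKO. A sum of CPM mostly follows the genes with the most reads, here Aqp5 and Emp2. Gene by gene, 6 of the 8 tested AT1 markers had a log2 fold change above 0 and 2 below, with a median of 0.60. Of all tested genes 49.1% were above 0. Genes of other cells were present in the sorted cells. The summed mesenchymal markers were at 514 and 221 CPM in Ctrl 1 and Ctrl 2, and at 133 and 1180 CPM in A5-CKO 1 and A5-CKO 2. The summed macrophage and leukocyte markers were at 849, 202, 259 and 1143 CPM in the same order, so Ctrl 1 and A5-CKO 2 were the high libraries of both lists. Of these 12 markers, 1 was higher and 1 lower in both A5-CKO libraries, against 20.3% and 23.5% of all tested genes. The higher one was Ptprc, the leukocyte gene that encodes CD45, at 50.9 and 22.5 CPM in Ctrl and 84.3 and 82.8 CPM in A5-CKO. The lower one was Siglecf, at 6.09 and 5.29 CPM in Ctrl and 0.634 and 4.32 CPM in A5-CKO. The summed markers of transitional cells between AT2 and AT1 overlapped, at 3838 and 1683 CPM in Ctrl and 2494 and 4108 CPM in A5-CKO. Of these 10 markers, 2 were higher in both A5-CKO libraries (Areg and Cdkn1a) and 0 lower, against 20.3% and 23.5% of all tested genes. Areg had 39.5 and 23.7 CPM in Ctrl and 69.0 and 69.5 CPM in A5-CKO. The summed airway markers were lower in both A5-CKO libraries, at 1894 and 1244 CPM against 2777 and 2692 CPM. The summed endothelial markers ranged from 211 to 315 CPM in Ctrl and from 174 to 284 CPM in A5-CKO, with Pecam1 and Cdh5 detected in every library and Cldn5 at 0 counts in all 4. Their part in the results below was not tested except where a value is given. In sorted cell pools, more cells using a gene and more RNA per cell cannot be told apart.

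Sema3e (chromosome 5, 14025276 to 14256689, GRCm38.p6), the ligand of Plxnd1, had 9.99 and 6.75 CPM in Ctrl 1 and Ctrl 2, from 169 and 116 reads. It had 38.3 and 28.3 CPM in A5-CKO 1 and A5-CKO 2, from 846 and 662 reads. The number of genes with any read was also higher in A5-CKO, at 23374 and 23884 against 20806 and 19931 in Ctrl, and its part in the difference was not tested. Both A5-CKO libraries lay above both Ctrl libraries, and the distance between the genotypes was larger than that between the libraries of either one. The mean was 8.37 ± 2.29 CPM (SD, n = 2) in Ctrl and 33.3 ± 7.07 CPM (SD, n = 2) in A5-CKO. The fitted log2 fold change was 1.99 (standard error 0.40), or 3.98-fold, and it is given as a description because it led to the choice of the family. It ranged from 1.71 without Ctrl 2 to 2.38 without Ctrl 1 when 1 library was left out. No gene annotated by RefSeq overlaps Sema3e. The summed mesenchymal, macrophage and endothelial markers overlapped between the genotypes. Each sum was lower in A5-CKO 1, the library with the most Sema3e, than in Ctrl 1. The macrophage and leukocyte sum was higher in A5-CKO 1 than in Ctrl 2, at 259 against 202 CPM. In A5-CKO 2 the mesenchymal sum (1180 CPM) and the macrophage and leukocyte sum (1143 CPM) were the highest of the 4 libraries. Whether cells of these types gave Sema3e reads was not tested. The summed AT2 and airway markers separated the genotypes in the opposite direction. Ptprc, 1 of 12 macrophage and leukocyte markers, separated the genotypes in the direction of Sema3e. So did 4 of the 8 tested AT1 markers (Hopx, Clic5, Akap5 and Cav1) and 2 of the 10 transitional markers (Areg and Cdkn1a). Over all tested genes 20.3% lay higher in both A5-CKO libraries. Aqp5 and Siglecf separated the genotypes in the opposite direction, and the other tested markers of these lists overlapped. The part of all these markers in the difference was not tested.

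**Figure D1:**
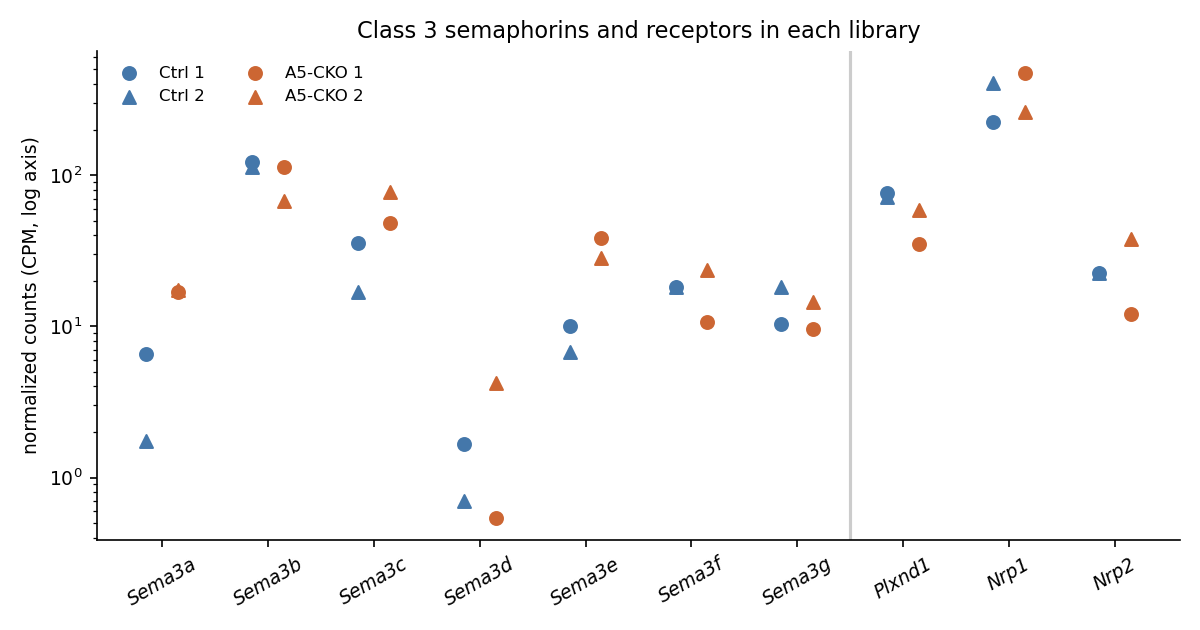
Normalized counts (CPM, log axis) of the 7 ligands and 3 receptors, with 1 point for each library, circles for replicate 1 and triangles for replicate 2. Sema3a, Sema3c and Sema3e are the members whose A5-CKO points both lie above both Ctrl points, and the points of Sema3d and Nrp2 spread most within A5-CKO.

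Sema3a and Sema3c, which lie in the same stretch of chromosome 5 as Sema3e, were also higher in both A5-CKO libraries. Sema3a (13124822 to 13603485), the founding class 3 semaphorin, which repels axons through Nrp1, had 6.56 and 1.75 CPM in Ctrl 1 and Ctrl 2, and 16.8 and 17.4 CPM in A5-CKO 1 and A5-CKO 2. The A5-CKO libraries were close to each other while the Ctrl libraries differed widely, with Ctrl 2 at 30 reads. Its log2 fold change was 2.04 (standard error 0.66), with an unadjusted p of 0.0181 and an adjusted p of 0.528 in edgeR's quasi-likelihood test. The fold change rested on the Ctrl libraries, with a log2 fold change of 3.37 without Ctrl 1 and 1.36 without Ctrl 2, where the unadjusted p from edgeR was 0.0520. Sema3c (17574816 to 17730268), which signals through neuropilins with Plxnd1 in the developing heart, had 35.5 and 16.8 CPM in Ctrl 1 and Ctrl 2, and 47.9 and 76.9 CPM in A5-CKO 1 and A5-CKO 2. The genotypes did not overlap, but Ctrl 1 lay nearer to A5-CKO 1 than to Ctrl 2 on the log scale. Its log2 fold change was 1.26 (standard error 0.45), with an unadjusted p of 0.0277 and an adjusted p of 0.528 in edgeR. It was 1.98 without Ctrl 1, 0.80 without Ctrl 2 (unadjusted p of 0.116 in edgeR) and 0.87 without A5-CKO 2 (unadjusted p of 0.147). Neither gene passed the adjusted threshold in edgeR, and DESeq2 with default filtering gave adjusted p values of 0.147 for Sema3a and 0.322 for Sema3c. Over the alternatives set for this comparison the adjusted p ranged from 0.147 to 0.899 for Sema3a and from 0.283 to 0.899 for Sema3c. A pairing of Ctrl 1 with A5-CKO 2 and Ctrl 2 with A5-CKO 1 as a block was added after seeing the data and is not given by the labels. With it, the edgeR adjusted p values were 0.0113 for Sema3a and 0.044 for Sema3c. The pairing was picked from how the libraries deviated in these same counts, so these values are not a valid test.

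Sema3b, Sema3f and Sema3g, the ligands that lie off chromosome 5, did not pass the test at an adjusted or an unadjusted threshold. Sema3b, a neuropilin ligand known as a tumour suppressor gene, had 122 and 114 CPM in Ctrl and 114 and 67.2 CPM in A5-CKO. Each A5-CKO library was below the lower Ctrl library, A5-CKO 1 by a margin of under 1 CPM, and they overlapped with total counts only, upper-quartile or RLE scaling. Its log2 fold change was -0.38 (standard error 0.34, with an edgeR adjusted p of 0.701). Sema3f, a ligand of Nrp2, had 18.2 and 18.1 CPM in Ctrl and 10.7 and 23.6 CPM in A5-CKO, so the A5-CKO libraries lay on either side of the Ctrl libraries. Sema3g, a ligand of Nrp2 found in blood vessels, had 10.3 and 18.3 CPM in Ctrl and 9.60 and 14.5 CPM in A5-CKO, and the genotypes overlapped. The log2 fold changes were -0.08 (standard error 0.47) for Sema3f and -0.25 (standard error 0.47) for Sema3g, and both turned positive with total counts only. Part of Sema3b overlaps Lsmem2, which had up to 331 reads, and whether reads were counted by strand is not given in the sources used here.

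Sema3d had the fewest reads of the 10 members. It had 28 and 12 reads in Ctrl 1 and Ctrl 2 and 12 and 98 reads in A5-CKO 1 and A5-CKO 2, or 1.66, 0.698, 0.543 and 4.19 CPM. Its log2 fold change of 1.01 (standard error 1.02) rested on A5-CKO 2 and was -1.11 without that library. The order of the 4 libraries for Sema3d, from A5-CKO 2 through Ctrl 1 and Ctrl 2 to A5-CKO 1, was that of the summed mesenchymal markers. The same order held for Nrp2 and Sema3f, but their Ctrl libraries were nearly tied. Ctrl 1 and Ctrl 2 had 22.6 and 22.4 CPM of Nrp2 and 18.2 and 18.1 CPM of Sema3f. Whether mesenchymal cells gave these reads was not tested.

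Among the receptors, Plxnd1 (chromosome 6, 115954811 to 115995339), the plexin that binds Sema3e, had 76.3 and 71.2 CPM in Ctrl 1 and Ctrl 2, and 35.0 and 58.5 CPM in A5-CKO 1 and A5-CKO 2. Each A5-CKO library was below the lower Ctrl library, the opposite side from Sema3e, and A5-CKO 1 held the most Sema3e and the least Plxnd1. The log2 fold change was -0.66 (standard error 0.34, with an edgeR p of 0.0952 before and 0.549 after adjustment), which did not pass the threshold. With total counts only it was -0.34 and the genotypes overlapped, and without A5-CKO 1 it was -0.33. Nrp1 (chromosome 8, 128358591 to 128505476), the neuropilin that binds Sema3a, had 226 and 403 CPM in Ctrl 1 and Ctrl 2, and 473 and 261 CPM in A5-CKO 1 and A5-CKO 2. Each genotype had 1 high and 1 low library, and the log2 fold change was 0.22 (standard error 0.44, with an edgeR adjusted p of 0.875). The lncRNA Gm32643 overlaps Nrp1 and had up to 488 reads. Nrp2 (chromosome 1, 62703317 to 62818692), the neuropilin that binds Sema3f, had 22.6 and 22.4 CPM in Ctrl and 12.0 and 37.9 CPM in A5-CKO. Its Ctrl libraries were alike and its A5-CKO libraries lay on either side of them, and the log2 fold change was 0.15 (standard error 0.55, with an edgeR adjusted p of 0.934), but -0.91 without A5-CKO 2.

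**Figure D2:**
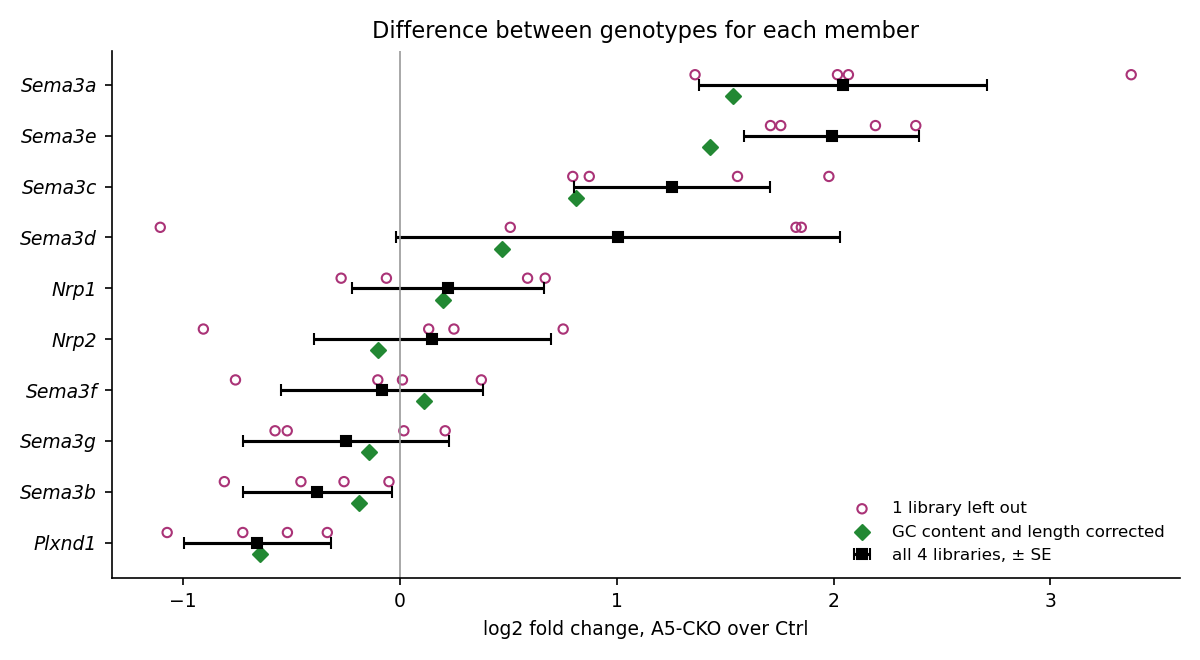
Log2 fold change of A5-CKO over Ctrl for each member, with squares and bars for the fit to all 4 libraries and its standard error, open circles for the fits with 1 library left out, and diamonds for the fit corrected for GC content and length. Sema3a, Sema3e and Sema3c stay above 0 in every fit drawn and Plxnd1 and Sema3b below 0, while the other 5 members cross 0 in at least 1 of them.

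Of the 9 members other than Sema3e, 0 passed 0.05 after adjustment in edgeR, in DESeq2 with either filtering, or in limma voom, and 2 had an unadjusted p under 0.05 in edgeR, Sema3a and Sema3c. These 2 were higher, as 4.48% of all tested genes were at that p, and none of the 9 was lower, as 4.71% were. The genotypes did not overlap in 4 of the 9, with A5-CKO the higher in 2 and the lower in 2, against 20.3% and 23.5% of all tested genes, so the 9 were separated about as often as genes at large. The median log2 fold change was 0.15 over the 9 and 0.19 over all 10, against -0.02 over all tested genes, and 5 of the 9 were above 0 where 49.1% of all tested genes were. With total counts only the median over the 10 was 0.51, but that scaling also moved the median of all genes to 0.30. Without A5-CKO 2 the median over the 10 was -0.31.

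By level per kb, Nrp1 was the most abundant member, at a mean of 94.8 CPM per kb over the 4 libraries, and Sema3b the most abundant ligand, at 30.5. The ranges of these 2 over the libraries did not overlap each other or that of Plxnd1, which followed at 8.72. Below them Sema3c (8.06), Sema3f (5.20), Nrp2 (3.53), Sema3e (3.04), Sema3g (2.90) and Sema3a (1.80) overlapped with their neighbours in this order, as Plxnd1 did with Sema3c. Sema3d was the lowest at 0.281 CPM per kb and overlapped with Sema3a. The summed level of the 7 ligands was 52.6 and 47.2 CPM per kb in Ctrl and 55.9 and 51.6 CPM per kb in A5-CKO, so the genotypes overlapped in that sum. Its make-up was not the same. Sema3b made up 67.8% and 70.7% of the ligand level in the Ctrl libraries, against 59.7% in A5-CKO 1 and 38.2% in A5-CKO 2. The share of Sema3e was 2.77% and 2.08% in Ctrl against 9.99% and 8.0% in A5-CKO, where it overtook Sema3g in both A5-CKO libraries. Sema3c made up 12.3% and 6.48% in Ctrl against 15.6% and 27.2% in A5-CKO. These shares are not a second line of evidence, since they come from the same reads.

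**Figure D3:**
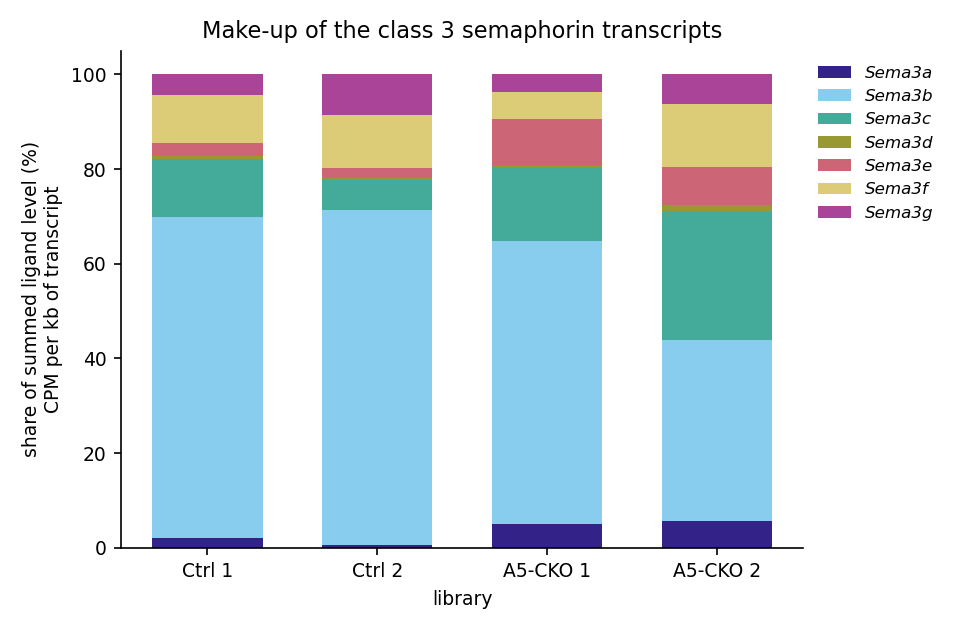
Share of each class 3 semaphorin in the summed ligand level (CPM per kb of transcript, in %) in each library, with each bar adding up to 100. Sema3b takes the largest share in all 4 libraries, and the shares of Sema3e, Sema3a and Sema3c are larger in both A5-CKO bars than in both Ctrl bars.

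The ligands also split by base composition and position. The 4 ligands on chromosome 5 had transcripts with 39.2% to 42.7% GC and log2 fold changes above 0, and the 3 others, Sema3b and Sema3f on chromosome 9 and Sema3g on chromosome 14, had 56.2% to 58.4% GC and log2 fold changes below 0. Over all tested genes the median log2 fold change was 0.39 for the 1420 genes in the first GC range and -0.33 for the 1425 genes in the second. The ligands therefore lay on the side of 0 that genes of their base composition took, and all 4 ligands on chromosome 5 lay above the median of their range. Once GC content and length were corrected for, the log2 fold change was 1.43 for Sema3e, 1.54 for Sema3a (unadjusted p = 0.0428 in edgeR), 0.81 for Sema3c (unadjusted p = 0.0994) and 0.47 for Sema3d. Of the 3 ligands of high GC content, Sema3b and Sema3g moved toward 0, to -0.19 and -0.14, and Sema3f changed sign, from -0.08 to 0.11. Plxnd1, whose transcript had 60.8% GC, stayed at -0.65. The part of base composition in these differences was not tested beyond this correction.

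**Figure D4:**
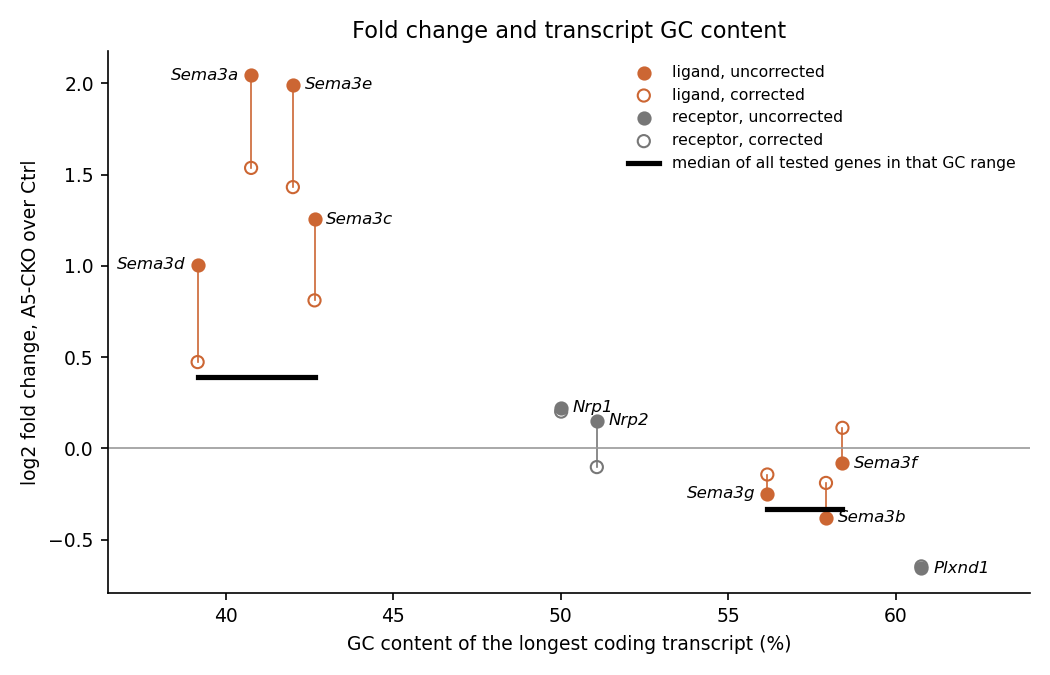
Log2 fold change of A5-CKO over Ctrl against the GC content of each member's longest coding transcript (%), before (filled) and after (open) the correction for GC content and length, with black bars for the medians of all tested genes in the 2 GC ranges of the ligands. All 4 chromosome 5 ligands lie above the bar of their range before the correction and move down with it.

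Between Sema3d and Sema3c on chromosome 5 (12383161 to 17730268) RefSeq places 22 protein-coding genes, these ends included, and 7 of the genes there had enough reads to be tested. The 3 that are not semaphorins were low and overlapped between the genotypes. Pclo, a presynaptic scaffold gene, had 1.18 and 4.01 CPM in Ctrl and 4.12 and 2.56 CPM in A5-CKO. Hgf, the hepatocyte growth factor gene of mesenchymal cells, had 2.19 and 0.116 CPM in Ctrl and 0.770 and 5.17 CPM in A5-CKO, with its high library again A5-CKO 2. Cacna2d1, a calcium channel subunit, had 1.89 and 0.931 CPM in Ctrl and 1.09 and 4.74 CPM in A5-CKO. Beside Sema3e, which prompted the choice, 2 of the other 6, Sema3a and Sema3c, were higher in each A5-CKO library than in either Ctrl library, against 20.3% of all tested genes.

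The 5 genes whose pattern over the 4 libraries was most like that of Sema3e, among 4629 genes within a 2-fold range of its mean CPM, were Smc5, Has1, Uvssa, Nfkbid and Zfp942. Likeness was the Euclidean distance between log2 CPM centred on each gene's mean, and it ran from 0.323 for Smc5 to 0.411 for Zfp942. Smc5, a subunit of a chromosome maintenance complex, had 10.6 and 6.75 CPM in Ctrl and 36.9 and 22.3 CPM in A5-CKO. Has1, a hyaluronan synthase, had 6.86 and 4.83 CPM in Ctrl and 30.7 and 16.4 CPM in A5-CKO. These genes were chosen for this pattern, so their levels are a description.

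The rest of the semaphorin pathway was read from lists of 55 genes, of which 52 were tested. None passed 0.05 after adjustment in edgeR or in DESeq2 with either filtering. At an unadjusted p under 0.05 there was 1 gene in edgeR, Vegfa. Both A5-CKO libraries lay above both Ctrl libraries in 8 of the 52 and below them in 7, against 20.3% and 23.5% of all tested genes, and the median log2 fold change was 0.05. Of the other plexins, the class A plexins that signal with neuropilins overlapped between the genotypes, and Plxnb2, a receptor of class 4 semaphorins, had 913 and 1126 CPM in Ctrl and 715 and 791 CPM in A5-CKO (log2 fold change -0.44, standard error 0.35). Plxnb1 had 279 and 431 CPM in Ctrl and 342 and 266 CPM in A5-CKO, and Plxna3 had 2.84 and 9.02 CPM in Ctrl and 4.93 and 3.80 CPM in A5-CKO.

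Of the 13 other semaphorins, 12 were tested, with 3 above and 2 below in both A5-CKO libraries, where 20.3% and 23.5% of all tested genes were. Sema6d, a membrane semaphorin, had 1.66 and 1.86 CPM in Ctrl and 2.94 and 6.11 CPM in A5-CKO (log2 fold change 1.36, standard error 0.64). Sema4b had 36.0 and 60.1 CPM in Ctrl and 29.4 and 28.7 CPM in A5-CKO (log2 fold change -0.73, standard error 0.36). Sema4a and Sema4d, which are membrane semaphorins best known from immune cells, were named for their mean CPM and overlapped between the genotypes. None of these differences passed the adjusted threshold.

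Of the 10 co-receptor and vascular growth factor genes, 9 were tested. Vegfa, the growth factor that Nrp1 helps to bind, had 173 and 208 CPM in Ctrl 1 and Ctrl 2, and 492 and 261 CPM in A5-CKO 1 and A5-CKO 2. Both A5-CKO libraries were the higher ones, and A5-CKO 1, which was highest for Vegfa, was also highest for Nrp1 and Sema3e. Its log2 fold change was 0.98 (standard error 0.40), with an unadjusted p of 0.0433 and an adjusted p of 0.528 in edgeR. Kdr, the main signalling receptor of Vegfa and a marker of endothelium, had 6.80 and 24.8 CPM in Ctrl and 16.8 and 14.6 CPM in A5-CKO, and Vegfc had 0.946 and 0.815 CPM in Ctrl and 0.905 and 3.16 CPM in A5-CKO.

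Of the 20 genes that carry or limit the signal inside the cell, 19 were tested, with 3 above and 4 below in both A5-CKO libraries, near the 20.3% and 23.5% of all tested genes. Mical1, an oxidase that takes actin filaments apart downstream of plexins, had 31.5 and 17.9 CPM in Ctrl and 37.3 and 51.9 CPM in A5-CKO (log2 fold change 0.85, standard error 0.40). Rras, a small GTPase that plexins switch off, had 127 and 62.7 CPM in Ctrl and 55.2 and 62.4 CPM in A5-CKO, where Ctrl 1 alone was high. Arf6 and Rac1, small GTPases with many other roles, were named for their mean CPM. Rac1 overlapped between the genotypes, and Arf6 had 490 and 543 CPM in Ctrl and 353 and 369 CPM in A5-CKO (log2 fold change -0.52, standard error 0.32). Of the 4 proprotein convertases, the enzymes that cut class 3 semaphorins, Furin had 274 and 396 CPM in Ctrl and 116 and 287 CPM in A5-CKO, and Pcsk5 had 1.54 and 1.28 CPM in Ctrl and 1.81 and 5.30 CPM in A5-CKO. Pcsk7 had 63.9 and 55.6 CPM in Ctrl and 43.4 and 84.6 CPM in A5-CKO. None of these genes passed the adjusted threshold.

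**Figure D5:**
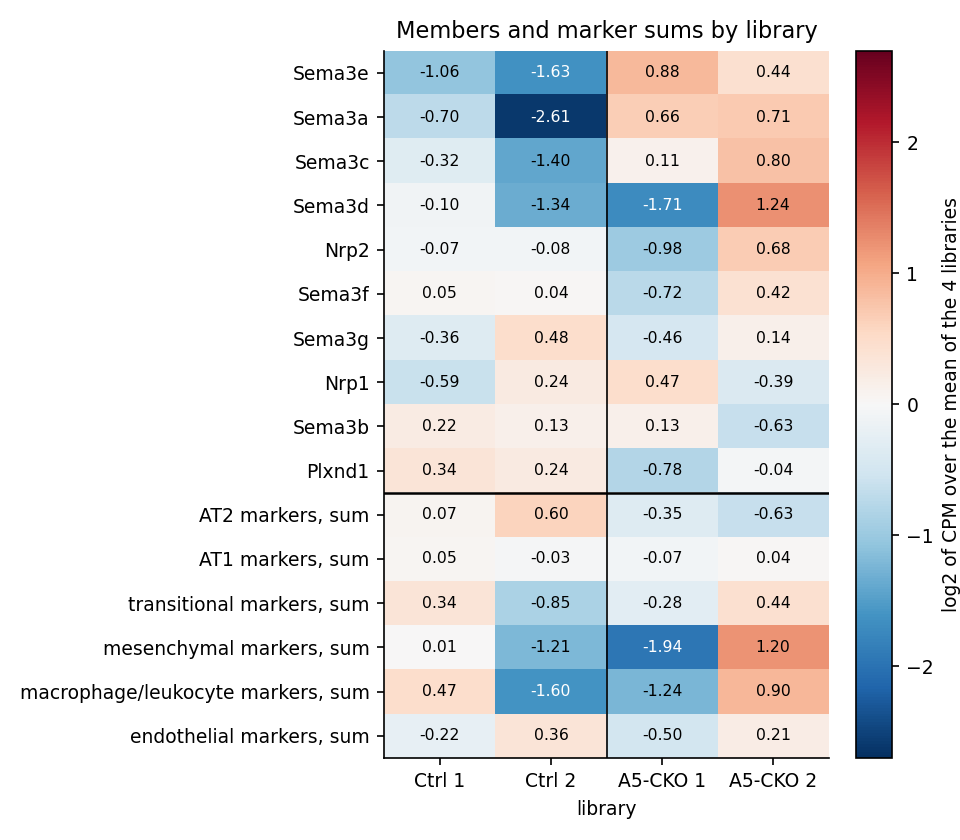
Log2 of the CPM of each member, and of the summed CPM of 6 marker lists, over the mean of the 4 libraries, with 1 column for each library. Sema3e, Sema3a and Sema3c are below the mean in both Ctrl columns and above it in both A5-CKO columns, a pattern that none of the 6 marker sums takes, though the AT2 sum takes its opposite, while Sema3d, Nrp2 and Sema3f are highest in A5-CKO 2 and lowest in A5-CKO 1 as the mesenchymal sum is.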

How the data were processed

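RNA-seq libraries were made from sorted GFP+ AT2 cells with a SMARTER mRNA-Seq kit. The deposited values are raw gene counts per library. The submitters' processing notes name Trim Galore 0.6.10, HISAT2 2.2.1, featureCounts 2.0.3 and mm10, and the authors also removed duplicate reads. The paper names removal of ribosomal reads under RNA-seq, but in the paragraph that goes on to call m6A peaks. Whether ribosomal reads were removed before these gene counts is therefore not clear. The strand setting is not given in the sources used here.

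Members and gene lists were chosen with earlier results of these data known. Counts were analysed in R 4.3.3 with edgeR 4.0.16 (TMM factors, filterByExpr, glmQLFit and glmQLFTest on genotype, Benjamini-Hochberg adjustment over 16661 genes), and the threshold was 0.05. DESeq2 1.42.0 and limma 3.58.1 (voom), other scalings and filters, a replicate block, each library left out, and a correction for transcript GC content and length (splines of 4 degrees of freedom, 15237 genes) were alternatives. The fit was tested on simulated data. Pathway genes were named as the 2 with the smallest p and the 2 with the highest mean CPM of each list, with any at an unadjusted p under 0.05. Sema3e was given no p. P-values measure only the spread between these libraries, which may be technical. The biological coefficient of variation was 41.6%. Replicate numbers were not used to pair the libraries in the main fit.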

Additional observations from a re-analysis of the deposited data

How the results depend on the processing

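The number of genes called was 0 in edgeR, 64 with DESeq2 on the same genes, 59 with its default filtering and 0 to 1 when 1 library was left out. The log2 fold change of Alkbh5 of -2.06 passed the threshold with DESeq2, at -2.01 with the genes of edgeR and -2.02 with its default filter. The median over the 10 members ranged from -0.31 to 0.56 when 1 library was left out. Sema3e kept its direction under every alternative run and was 1.43 with the GC content and length correction. Its difference in these same counts prompted the choice of the family, so this is a description and not support for the difference. Sema3d, Sema3f, Sema3g, Nrp1 and Nrp2 changed sign under at least 1 alternative. Sema3f was 0.021 with upper-quartile factors, 0.24 with no scaling and 0.11 with the GC content and length correction, and ranged from -0.76 to 0.38 with 1 library left out. Sema3g was 0.087 with no scaling and ranged from -0.58 to 0.21 with 1 library left out, Sema3d from -1.11 to 1.85, Nrp1 from -0.27 to 0.67 and Nrp2 from -0.91 to 0.75. Nrp2 was -0.067 with limma voom, -0.074 with the replicate block and -0.10 with the GC content and length correction. The cause was not tested.

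Same-numbered libraries deviated in opposite directions (correlation -0.35 across genes), and the replicate block left 0 genes called. With 2 libraries per genotype, this correlation cannot show whether same-numbered libraries were processed together. With the crossed pairing, added after seeing the data, 230 genes were called, 2 of them members other than Sema3e (Sema3a and Sema3c), with Alkbh5 at -2.06 and Nrp2 at -0.070. Since that pairing was picked from these same counts, its calls are not a valid test. With 2 libraries per genotype the median standard error over the members was 0.46, and log2 differences as large as that of Alkbh5 did not pass the adjusted threshold in edgeR.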

Other observations

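The letters GGACT, a common context of m6A, were counted on the sense strand of each member's longest coding transcript in GENCODE M21. Sema3e held 7, or 1.02 per kb, against a median of 1.04 per kb over the tested genes with a transcript. Nrp1 had the highest density of the 10 members, at 2.22 per kb, followed by Sema3b at 2.05, and Sema3d the lowest, at 0.317. Methylation was not measured in the libraries analysed here, and a count of letters does not show that a site is methylated.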
